A study of Homo sapiens with 12 samples.

Results

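The comparison described here is that of cells treated with Wee1 inhibitor II alone with untreated control cells, and it rests on 5 of the 12 arrays of the series. WEE1 is a protein kinase that places an inhibitory phosphate on CDK1, the kinase that drives entry into mitosis, and so delays division until DNA has been copied and checked. An inhibitor of WEE1 lifts that brake, and cells with damaged or unfinished DNA can then enter mitosis. The title of the study names sensitisation of prostate cancer cells to an Hsp90 inhibitor as its subject, and the arrays of Wee1 inhibitor II alone give the response to the first of its drugs without the second. The members were chosen by the array titles: 3 arrays of cells given Wee1 inhibitor II and 2 arrays of untreated cells, control replicates 1 and 3. The third control array, replicate 2, which its title marks as weak in signal, was left out, as the study also did. All genes on the array were described, with weight on the 8668 genes, of 19775 measured, whose mean signal was 100 or more in control or treated cells.

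The cells are labelled PC3, an established line from a human prostate cancer, grown in DMEM with fetal bovine serum. Wee1 inhibitor II was added to a final 2.5 µM and the cells were harvested 72 h later. The labels call the control cells untreated, while the treatment protocol gives controls an equal amount of vehicle. The series also holds 3 arrays of cells given 40 nM 17-AAG, an Hsp90 inhibitor added 24 h after the time point at which Wee1 inhibitor II was given and 48 h before harvest, and 3 arrays of cells given both drugs. The design text speaks of experimental replicates, and no label says that they came from separate cultures. The p-values then measure only the spread between these arrays, which may be technical. Within the 5 arrays compared, log2 signals over all probe sets correlated at 0.924 to 0.934 within a group and at 0.913 to 0.920 between groups. RNA was measured on the Affymetrix U133 Plus 2.0 array, which holds 54675 sets of short probes, and the deposited values are linear signals with the same trimmed mean of 150 on each of the 12 arrays. The small number of arrays limits the precision.

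The labelled cell line was checked against its markers first. Of 22 measured markers of PC3 cells and prostate epithelium, 3 reached a signal of 100 on all 5 arrays and 19 stayed below 100 on all 5, 15 of them below 32. HOXB13, the prostate homeobox gene, was at 3.25 and 3.69 in control and 10.8, 9.99 and 3.22 in treated cells, and EPCAM, an epithelial adhesion protein, was at 13.9 and 25.2 in control and 9.28, 8.66 and 8.90 in treated cells. CTNNA1 and STAT3, both known to be deleted in PC3 cells, were at 2824 and 2992 and at 896 and 819 in the control arrays. Of 17 measured markers of pigment cells, 15 were at 100 or more on all 5 arrays. These arrays therefore go against the label on these markers, in both groups alike, and the values below are those of the arrays labelled PC3. The control array left out differed from all 11 others: 15 of the 22 prostate and epithelial markers were above, and 15 of the 17 pigment markers below, every other array. All markers of blood and endothelial cells were below 100 on all 5 arrays.

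Wee1 inhibitor II alone changed many genes by a modest amount. Among the 8668 brighter genes, 2101 (24.2%) were called higher and 1877 (21.7%) lower in treated cells, together 45.9%, by limma's moderated test with Benjamini-Hochberg adjustment over all 19775 genes and an adjusted p under 0.05. Over all genes 4922 (24.9%) were called, 2877 (14.5%) higher and 2045 (10.3%) lower, and 6890 had an unadjusted p under 0.05. The median absolute change of the called brighter genes was 0.65 on the log2 scale. A change of at least 2-fold was seen in 578 higher and 262 lower genes, a change of at least 4-fold in 91 and 16, and a change of at least 8-fold in 13 and 0. The control and treated arrays did not overlap for 6332 of the 8668 brighter genes (73.1%), so for any gene below, groups that do not overlap are the common case. All 3978 called brighter genes were among them, so for a called gene the lack of overlap adds nothing to the call.

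The split between higher and lower genes depended on how the arrays were scaled. The treated arrays had slightly higher median signals, and the median change was 0.12 over all genes and 0.01 over the brighter genes on the log2 scale. Quantile normalisation gave 1889 higher and 1960 lower brighter genes and moved the median of all genes to -0.03. Centring each array on its median gave 998 higher and 2588 lower, with the median of the brighter genes at -0.22. Counts with arrays centred on their median are given below beside gene groups whose excess of higher over lower members was lost or came down to 2 or fewer. In the groups said below to lean downward, centring raised the excess of lower members. Both control arrays carried weight: without control replicate 3 there were 3225 called genes and without control replicate 1 there were 3342. With the weak control array included there were 1268. Among the brighter genes, 1466 were higher and 1194 lower without control replicate 1, and 1449 and 1135 without control replicate 3. Group counts below that leave out a control array are to be read beside this general loss of calls. The share called rose with the signal, from 37.5% of the 1893 genes with a higher group mean of 100 to 200, where 505 rose and 204 fell, to 54.1% of the 1687 genes from 1000 to 3000, where 344 rose and 569 fell. Of the 589 genes above 3000, 186 rose and 111 fell, and the plot of change against signal shows this bend.

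The largest rise was that of SERPINA3, an acute phase protease inhibitor also called alpha-1-antichymotrypsin. Its signal was 58.1 and 48.2 in the control arrays and 1444, 1165 and 1408 in the treated arrays. Every treated array was more than an order of magnitude above both controls, and the change was 4.65 ± 0.21 on the log2 scale (± SE, as for all changes below), or 25.2-fold, with limma's adjusted p of 1.81e-05. NNMT, which methylates nicotinamide, went from 52.3 and 29.6 to 748, 741 and 779, a rise of 4.26 ± 0.24. KLF4, a zinc finger transcription factor, went from 60.9 and 49.2 to 813, 675 and 809.5, a rise of 3.80 ± 0.19 (limma adjusted p = 2.66e-05). In both genes the treated arrays lay close together and far above the controls. CEBPD, a transcription factor of the acute phase response, was at 215 and 203 in control and at 2235, 1804 and 2212 in treated cells, 9.94-fold higher with a change of 3.31 ± 0.12. NNMT belongs to a list of 25 enzymes of NAD, vitamin and haem metabolism, of which 11 rose and 4 fell (HMOX2, HMOX1, NADK and ALAS1; 2 lower without control replicate 1), with KYNU of the kynurenine path at 1.23 ± 0.08. With arrays centred on their median, 6 of the list rose and 5 fell. RETREG1, a receptor for autophagy of the endoplasmic reticulum, went from 32.2 and 39.0 to 508, 398 and 386. All treated arrays of RETREG1 were far above both controls, which were dim.

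Of the 15 largest rises among the brighter genes, 8 started from a control mean below 32, where a log2 change is unstable. C1S, a protease of the first complement component, had signals of 13.3 and 19.7 in control and 336, 338 and 341 in treated cells. Its change was 4.38 ± 0.19 as deposited and 3.40 when signals below 32 were set to 32, and the 3 treated arrays were nearly equal. INHBE, a subunit of activin E, went from 10.5 and 15.8 to 216, 199.5 and 233, with a change of 4.06 that became 2.75 with the floor. DEPP1, LTBP2, ZNF580, STON1, AP1G2-AS1 and LINC00324 had changes of 3.86, 3.79, 3.65, 3.36, 3.05 and 2.99, which the floor lowered to 3.06, 1.83, 1.67, 3.29, 1.97 and 1.65. All 8 kept their call with the floor. The other large rises were those of EDIL3, a secreted integrin ligand (3.03), and TSC22D3, a leucine zipper protein known as a glucocorticoid-induced gene (3.00). TSC22D3 was at 87.0 and 67.0 in control and 630.0, 608 and 594 in treated cells, with no overlap. The call of EDIL3 was lost when a gene's probe sets were averaged.

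The largest falls were smaller than the largest rises. GALNT3, which starts O-linked sugar chains on proteins, was at 402 and 477 in the control arrays and 65.1, 56.1 and 62.3 in the treated arrays, a change of -2.84 ± 0.12 (limma adjusted p = 1.44e-05). ID3, which binds and blocks helix-loop-helix transcription factors, went from 1040.0 and 958 to 143, 159.9 and 156, a change of -2.71 ± 0.11. In both genes the treated arrays lay close together and far below both controls. PPARGC1A, a coactivator of mitochondrial gene expression, went from 331 and 311 to 52.1, 55.2 and 59.6, and PHACTR1, a regulator of actin and phosphatase 1, from 2227 and 2376 to 531, 555 and 497. MMP8, a collagenase, went from 800.1 and 797 to 188, 207 and 151. The controls of MMP8 were nearly equal, while the treated arrays ranged more widely. The lncRNA LINC02915 (-2.74), the kelch protein KBTBD8 (-2.28), the potassium channel subunit KCNAB1 (-2.26), the xylosyltransferase GXYLT1 (-2.22), PRADC1 (-2.14), the PI3-kinase subunit PIK3R3 (-2.14), the chaperone HSPA4L (-2.12) and the melanocyte channel TRPM1 (-2.02) complete the 15 largest. UBAP1L had the largest value, -2.96, from 121 and 135 to 29.4, 6.08 and 24.6, and came to -1.997 with the floor at 32. The calls of PPARGC1A, TRPM1 and UBAP1L were lost when a gene's probe sets were averaged.

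SLC11A2, TFRC and SLC39A8, which take part in iron uptake, fell, and no list of iron genes was counted. SLC11A2, which carries iron across membranes, was at 810.4 and 772 in control and 162, 170.2 and 165 in treated cells, a change of -2.26 ± 0.09 (limma adjusted p = 1.44e-05). TFRC, the transferrin receptor, went from 8638 and 8753 to 2218, 2592 and 2474, a change of -1.84 ± 0.13 (limma adjusted p = 9.16e-05). In each gene the treated arrays were together and far below both controls. SLC39A8, a zinc and iron carrier, fell from a mean signal of 1017 to 280.5 (-1.86 ± 0.10). Of 3 probe sets of SLC11A2 with a signal of 100 or more, 2 were called lower.

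**Figure D1:**
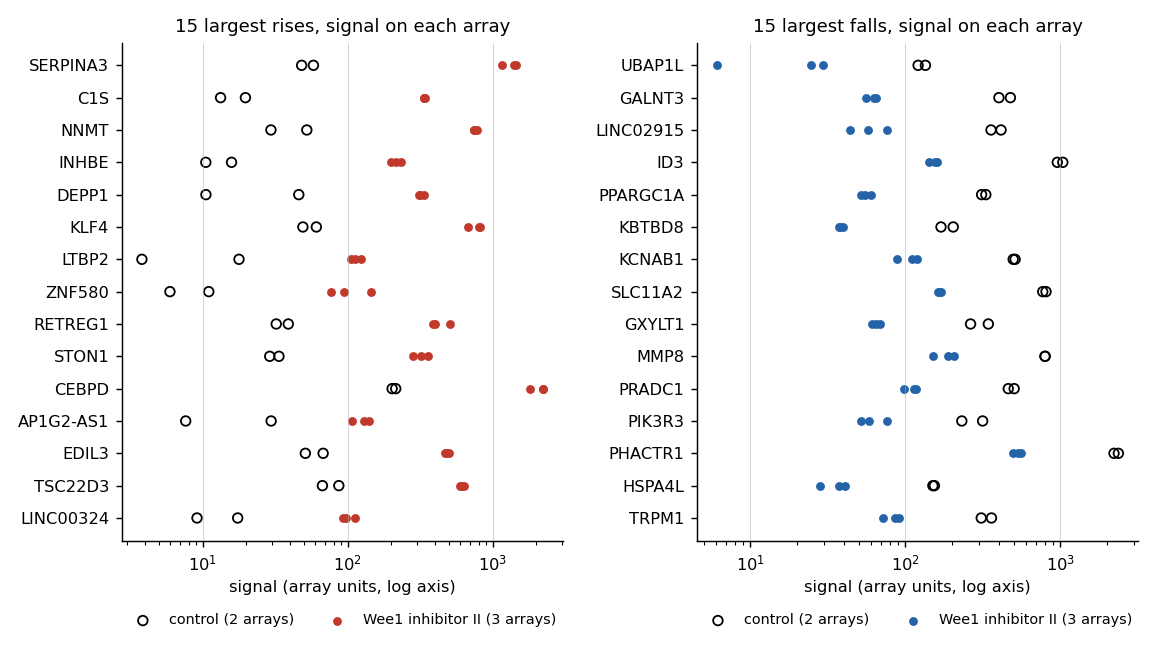
Signal on each array (log axis) of the 15 largest rises and the 15 largest falls among the called brighter genes, with control arrays and Wee1 inhibitor II arrays marked apart. No gene has overlapping groups, as the choice of genes requires, and the spread within a group is widest where control signals are below 32, as for LTBP2 (17.8 and 3.81).

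Genes that passed from a dim to a clear signal were nearly all in the direction of treatment. There were 19 genes below 32 in both control arrays and at 100 or more in all 3 treated arrays, all 19 called, and 1 gene, UBAP1L, in the reverse. The 10 with the highest treated signals were C1S, INHBE, PLSCR4, SEL1L3, DPYD, CARD10, ZNF623, SLAIN1, IFITM1 and GPC6. DPYD, which breaks down pyrimidines and the drug fluorouracil, was at 31.1 and 30.7 in control and 149, 207 and 174 in treated cells. GPC6, a heparan sulfate proteoglycan of the cell surface, was at 26.9 and 24.5 in control and at 121, 164 and 164 in treated cells. IFITM1, an interferon-induced membrane protein, was at 30.8 and 23.9 in control and at 189.6, 139 and 146 in treated cells. No overlap of treated and control arrays is possible in these genes, as their choice requires it. The calls of DPYD and CARD10 were lost when a gene's probe sets were averaged. A control signal below 32 is dim, and the size of such a rise depends on the floor.

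Collagens and laminins of the extracellular matrix mostly rose. Of 7 collagens with a signal of 100 or more, 5 rose and none fell, with a median change of 1.77 against 0.01 for all brighter genes. COL5A3, a chain of a fibrillar collagen, was at 68.8 and 49.7 in control and 429.9, 419 and 410.5 in treated cells (2.84 ± 0.16). COL4A1 and COL4A2, the common chains of basement membranes, rose from 162 to 461 and from 150.3 to 514 (group means of log2 signals, turned back to signals, as for all group means). COL13A1, a membrane-spanning collagen, rose by 2.09 ± 0.20. Of 6 laminins, which join collagen IV in basement membranes, 4 rose and none fell, led by LAMB1 from 1021 to 2045 (1.00 ± 0.09). The other matrix groups were mixed. Of 14 matrix proteases and their inhibitors, 5 rose and 3 fell, median 0.28, and with arrays centred 3 rose and 3 fell. Of 12 matrix glycoproteins, 7 rose, among them the basement membrane proteoglycan HSPG2 (2.14 ± 0.11), and 2 fell (1 without control replicate 1 or without control replicate 3), among them lumican, LUM, from 1062 to 321 (-1.73 ± 0.10). LUM is also the only fibroblast marker of 12 with a signal of 100 or more, and the summed fibroblast markers went from 1150 to 1315 in control arrays to 523 to 592 in treated arrays.

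Receptor tyrosine kinases and cell adhesion molecules mostly rose, and the other surface groups counted here did not. Of 11 receptor tyrosine kinases, 8 rose and 2 fell, median 0.83, with 5 higher and 1 lower without control replicate 3 and 1 lower without control replicate 1. DDR2, a receptor for fibrillar collagen, was at 134 and 135 in control and 672, 661 and 733 in treated cells, with no overlap and a change of 2.36 ± 0.17. IGF1R, the receptor of insulin-like growth factors, rose from 627 to 1922 (1.62 ± 0.14), and ERBB3, the receptor of neuregulins, from 1046 to 2342 (1.16 ± 0.13). EPHA3, an ephrin receptor, fell from 1322 to 562 (-1.23 ± 0.11). Of 18 cadherins and cell adhesion molecules, 11 rose and 1 (NECTIN3, not called without control replicate 1) fell, median 0.53. L1CAM, an adhesion molecule of neurons and neural crest cells, rose from 1523 to 3638 (1.26 ± 0.10) and PCDH7, a protocadherin, by 1.80 ± 0.11. The Wnt ligand WNT5A (1.80 ± 0.15), its receptor FZD2 (1.79 ± 0.13) and the Wnt inhibitor DKK1 (2.45 ± 0.23) rose as well, within a Wnt list of 17 with 7 higher and 2 lower, or 4 and 2 with arrays centred. Of 10 integrins, 2 rose and 1 fell, median 0.05, or 1 and 1 with arrays centred. Of 11 semaphorins, netrins, slits and their receptors, 3 rose and 3 fell (1 without control replicate 3), and of 3 connexins and pannexins 2 fell and none rose. Of 8 members of the TNF ligand and receptor families, 3 rose and 1 fell, or 1 and 1 with arrays centred. The fall lost its call when any of the 11 arrays fitted, control arrays included, was left out.

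Growth factors and cytokines that cells secrete moved in both directions. CXCL8, the neutrophil chemokine interleukin-8, was at 91.4 and 88.1 in control and 705, 753 and 648 in treated cells, a rise of 2.97 ± 0.11 (limma adjusted p = 1.44e-05). It was the only one of the 24 chemokines and interleukins listed with a signal of 100 or more. A wider family of 35 chemokine ligand symbols held 2 genes with such a signal, of which 1 rose and 1 fell. VEGFA, the endothelial growth factor, rose from 599 to 1724 (1.52 ± 0.20), and PDGFC from 63.5 to 236 (1.90 ± 0.13). Its relative PDGFD fell by 1.29 ± 0.17 in log2 units and KITLG, the ligand of the receptor KIT, fell by 1.44 ± 0.11. Of 9 growth factors with a signal of 100 or more, 5 rose and 2 fell, or 4 and 2 with arrays centred.

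Acute phase and complement genes mostly rose. Of 18 genes of the acute phase and the STAT3 pathway, 11 rose and 1, IL6R, fell, with a median of 0.61. Besides SERPINA3, OSMR, the oncostatin M receptor, rose from 475 to 1716 (1.85 ± 0.12). SOCS3, a feedback inhibitor of cytokine signalling, was at 50.7 and 41.6 in control and 227, 236 and 221 in treated cells (2.31 ± 0.16), and its relative SOCS2 rose from 553 to 1687 (1.61 ± 0.11). Of 13 complement and coagulation genes, 9 rose and 1 (PROCR, not called without control replicate 1 or without control replicate 3) fell, median 0.96. C1R, which forms a complex with C1S, was at 64.0 and 68.9 in control and at 322, 290.4 and 288 in treated cells (2.17 ± 0.09), and the anticoagulant PROS1 went from 1178 to 2287. In C1R and C1S each treated array was above each control, as in every called brighter gene that rose.

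Antigen presentation genes rose in part. Of 19 genes of the MHC and antigen presentation, 10 rose and 3 fell (HLA-DPB1, TAP2 and PSMB10), median 0.43, with 1 lower without control replicate 3. HLA-C rose from 1245 to 2967 (1.25 ± 0.09) and HLA-B from 999.7 to 2534 (1.34 ± 0.11). PSME1, a proteasome activator, rose by 0.89 ± 0.11. The interferon-induced genes as a list did not lean one way, with 8 of 26 higher and 5 lower (3 and 2 lower without control replicates 1 and 3), or 6 higher and 7 lower with arrays centred. Within it the 3 membrane proteins IFITM1, IFITM2 and IFITM3 rose by 2.53 ± 0.22, 2.02 ± 0.10 and 1.81 ± 0.11. The probes for MHC class I and IFITM genes may bind near-identical relatives, so which copy changed is uncertain.

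Transcription factors of the KLF and SP family mostly rose. Of 16 with a signal of 100 or more, 10 rose and 1, SP4, fell, with a median of 0.88, and none was lower without control replicate 1 or without control replicate 3. KLF2 went from 172 to 842 (2.30 ± 0.24), KLF11 from 105 to 414 (1.97 ± 0.18) and KLF13 from 169.5 to 334 (0.98 ± 0.10), beside KLF4 above. Of 20 members of the ATF, CREB and CEBP families, 12 rose and 3 fell (ATF7, CEBPZ and CREM), median 0.62. The falls numbered 1 without control replicate 1, without control replicate 3, and without Wee1 inhibitor II replicate 1 or 3. ATF4, which drives genes of amino acid supply under stress, was at 4012 and 4102 in control and 9851, 10128 and 9711 in treated cells. The 3 treated arrays lay close together and 2.44-fold above the controls on average, a change of 1.29 ± 0.11 with limma's adjusted p of 0.000179. ATF5 (1.38 ± 0.14) and ATF3 (1.51 ± 0.19), both known targets of that pathway, rose too. Of the nuclear receptors, NR4A2 rose by 1.72 ± 0.16 while its relative NR4A3 fell by 1.54 ± 0.14 in log2 units. ID2 went from 1492 and 1674 to 405, 424 and 455, a fall like that of ID3.

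The enzymes that load amino acids onto tRNA differed by compartment. Of the 29 with a signal of 100 or more, 9 rose and 7 fell, or 8 and 8 with arrays centred. WARS1, for tryptophan, rose from 566 to 2207 (1.96 ± 0.14), CARS1, for cysteine, from 2485 to 6387 (1.36 ± 0.10), SARS1, for serine, from 1168 to 3015 (1.37 ± 0.12) and GARS1, for glycine, from 3137 to 6307 (1.01 ± 0.11). All 9 rises were among the 15 enzymes that act in the cytosol or in both compartments, where 1 fell (RARS1, -0.97) and the median was 0.65. Of the 14 whose symbol ends in 2, the mitochondrial forms, 6 fell and none rose, with a median of -0.17. This split was made after the values were seen and carries no test. PCK2, a mitochondrial enzyme known as an ATF4 target, was at 262 and 249 in control and 1434, 1349 and 1413 in treated cells (2.45 ± 0.19), and ASNS, the asparagine synthetase, went from 1274 and 1263 to 6478, 6356 and 6685 (2.36 ± 0.14). In both genes the treated arrays lay far above the controls and did not overlap with them.

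**Figure D2:**
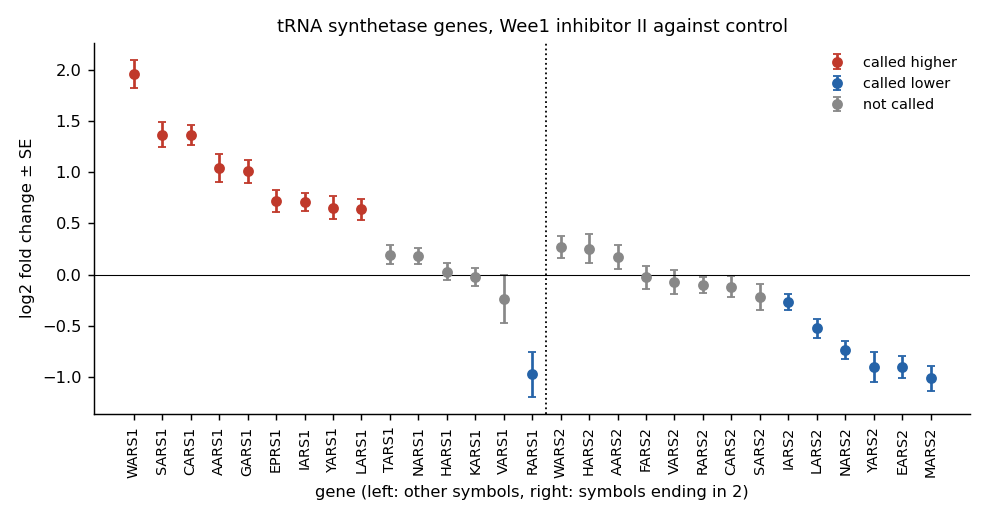
Change with Wee1 inhibitor II against control (log2 fold change with SE) for the 29 aminoacyl-tRNA synthetases with a signal of 100 or more, the 14 mitochondrial enzymes with symbols ending in 2 apart from the 15 others. The called rises, up to 1.96 for WARS1, are all among the 15 others on the left, and the called falls, down to -1.01 for MARS2, are with the exception of RARS1 among the mitochondrial enzymes on the right.

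Genes of the cell cortex and cytoskeleton leaned upward as deposited, and little with arrays centred on their median. Of 17 S100 proteins and annexins, 8 rose and none fell, but with arrays centred 3 rose and 1 fell. ANXA1, which binds membranes under calcium, rose from 1861 to 4778 (1.36 ± 0.10). The number of S100 proteins and annexins that rose was 4 without control replicate 1 and 4 without Wee1 inhibitor II replicate 3. Of 38 actin binding and contractile genes, 16 rose and 3 fell, with LIMA1 from 1416 to 3226 (1.19 ± 0.08) and TPM1, a tropomyosin, by 0.66 ± 0.09. Without control replicate 1, 7 rose and none fell, without control replicate 3 none fell, and with arrays centred on their median 5 rose and 3 fell. TUBA1A, an alpha-tubulin, rose from 2200.0 to 8205 (1.90 ± 0.13), and the caveolar proteins CAV1 and CAVIN3 rose by 0.99 ± 0.09 and 1.77 ± 0.11.

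Histone and HOX genes rose among the chromatin genes. Of 16 histone genes, 10 rose and 1, the pseudogene H1-9P, fell, with a median of 0.87. H2BC12 went from 297 and 333 to 1652, 1505 and 1773 (2.38 ± 0.10) and H2AC6 from 63.4 and 56.3 to 378, 367 and 365 (2.63 ± 0.12). The treated arrays of both were far above their controls, though histone genes are near-identical in sequence and the copy that changed is uncertain. Of 9 HOX genes, which give cells their position along the body, 5 rose and none fell, median 0.71, with HOXC6 from 559 to 1263 (1.18 ± 0.12). Of 26 histone demethylases and deacetylases, 7 rose (4 without control replicate 1) and none fell, among them HDAC4 (1.11 ± 0.14). With arrays centred 3 of these rose and 4 fell, and with quantile normalisation 6 rose and 2 fell. Of 157 zinc finger genes with ZNF symbols, 51 (32.5%) rose and 11 (7.01%) fell, against 24.2% and 21.7% of all brighter genes, median 0.16. Without control replicate 1 or 3, 31 or 30 rose, with 6 lower without control replicate 1. Centring the arrays turned the ZNF median to -0.07, with 22 higher and 15 lower. Of 66 antisense transcripts, 30 rose and 9 fell, median 0.42. The antisense transcript of SOCS2, SOCS2-AS1, rose by 2.98 ± 0.27, and whether its probes tell the strands apart was not tested.

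**Figure D3:**
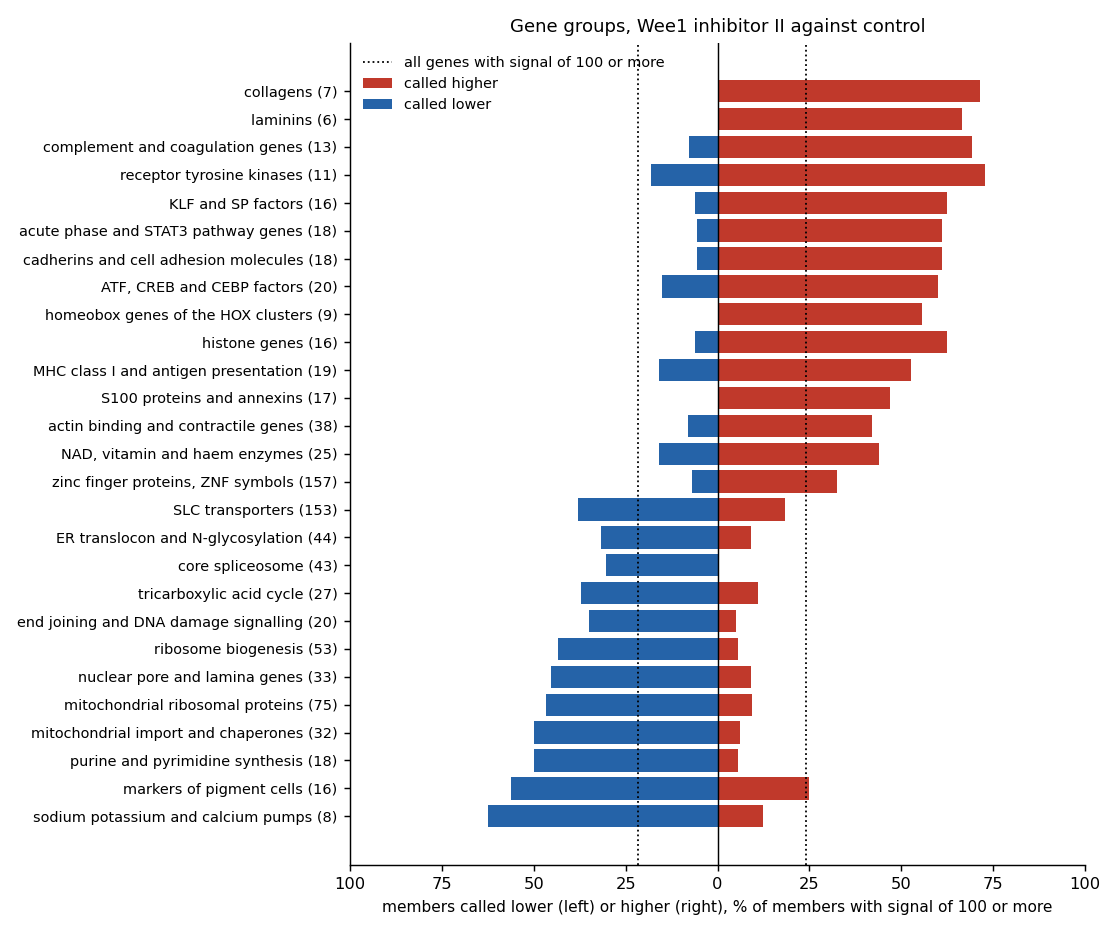
Share of members with a signal of 100 or more that were called higher or lower (percent) in gene groups, with the shares of all 8668 brighter genes, 24.2% higher and 21.7% lower, drawn as lines. Collagens, laminins, histones and KLF and SP factors lie on the higher side, and mitochondrial import, nuclear pore and ribosome biogenesis genes on the lower side.

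Genes of ribosome assembly and of the mitochondrion leaned downward. Of 53 ribosome biogenesis genes, all with a signal of 100 or more, 23 fell and 3 rose (WDR75, NOB1 and MYC), median -0.33. UTP20 and UTP11, parts of the complex that processes the small subunit RNA, fell from 750.4 to 407 (-0.88 ± 0.12) and from 1387 to 797 (-0.80 ± 0.11). The number that fell was 15 without control replicate 1 and 11 without control replicate 3. Lower calls over all brighter genes went from 1877 to 1194 and 1135 in the same fits. Of 75 mitochondrial ribosomal proteins, 35 fell and 7 rose, median -0.30. MRPL27 fell from 1678 to 834 (-1.01 ± 0.10) and MRPL49 fell by 1.06 ± 0.11 in log2 units, while MRPS33 rose from 885 to 1529 (0.79 ± 0.08). Without control replicate 3, 17 mitochondrial ribosomal proteins fell and 1 rose, and 1 rose without control replicate 1 also. Of 32 genes of mitochondrial import and chaperones, 16 fell and 2 rose (TIMM9 and LONP1; 1 without control replicate 1 or without control replicate 3), median -0.40. TIMM21, a part of the inner membrane translocase, fell from 1925 to 833 (-1.21 ± 0.10).

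Of 27 genes of the tricarboxylic acid cycle and its entry, 10 fell (6 without control replicate 3), 37.0% against 21.7% of all brighter genes. A rise was called in 3 (PCK2, SUCLG2 and IDH2), and the median was -0.25. IDH3A, the catalytic subunit of the NAD-linked isocitrate dehydrogenase, fell from 1589 to 900.2 (-0.82 ± 0.09). Complex I of the respiratory chain was closer to the background, with 8 of 33 lower (3 without control replicate 3) and 1 higher (none without control replicate 1 or without control replicate 3), although NDUFS3 fell from 3101 to 1495 (-1.05 ± 0.08). HSPE1, the small mitochondrial chaperonin, was at 7174 and 7379 in control and 3762, 4138 and 4089 in treated cells. The 3 treated arrays were well below both controls, a change of -0.87 ± 0.11 with limma's adjusted p of 0.00104. Enzymes of purine and pyrimidine synthesis fell in 9 of 18, with ATIC as the only rise. PAICS, an enzyme of the purine ring, fell from 3119 to 1896 (-0.72 ± 0.08), and PPAT, the first enzyme of that path, fell by 0.68 ± 0.09 in log2 units.

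Genes of the nuclear envelope, splicing and the DNA damage response held more falls than rises, though most of their members were not called. Of 33 genes of the nuclear pore and lamina, 15 (45.5%, against 21.7% of all brighter genes) fell and 3 rose (LMNA, AAAS and TPR), median -0.33. Without control replicate 1, 9 fell and none rose, and without control replicate 3, 1 rose. NUP93, a scaffold nucleoporin, fell from 817 to 401 (-1.03 ± 0.10), and LBR, the lamin B receptor, fell by 0.63 ± 0.09 in log2 units. Of 43 core spliceosome genes, 13 (30.2%) fell, or 8 without control replicate 3, and none rose. SNRNP25 of the minor spliceosome fell from 1337 to 569 (-1.23 ± 0.15). Of 20 genes of end joining and damage signalling, 7 (35.0%) fell and 1 (MRE11) rose, the latter not called without control replicate 1 or without control replicate 3. NBN, which binds broken DNA ends with MRE11, fell from 1119.7 to 632 (-0.82 ± 0.09), and TIPIN, a fork protection protein, fell by 0.84 ± 0.13 in log2 units. The number that fell here was 3 without control replicate 1 and 3 without control replicate 3. Of 26 genes with anaphase-promoting complex or CENP symbols, 14 fell and 3 rose, and the falls were 8 and 7 without those controls.

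Transport across membranes leaned downward. Of 153 SLC transporters, 58 (37.9%) fell and 28 (18.3%) rose, against 21.7% and 24.2% of all brighter genes, with a median of -0.17. Without control replicate 3 the counts were 36 and 17. Besides SLC11A2 and SLC39A8, the vesicular polyamine transporter SLC18B1 fell from 333 to 114 (-1.55 ± 0.10). Of 8 sodium, potassium and calcium pump genes, 5 fell and 1 (FXYD5) rose, median -0.62. ATP1B1, the beta subunit of the sodium pump, fell from 2406 to 1461 (-0.72 ± 0.09), and ATP2A2, the calcium pump of the endoplasmic reticulum, from 1758 to 992 (-0.83 ± 0.12). Of 44 genes of the translocon and N-glycosylation, 14 (31.8%, against 21.7% of all brighter genes) fell, or 8 without control replicate 3. A rise was called in 4 (2 without control replicate 1). SRPRB, a subunit of the signal recognition particle receptor, fell from 1942 to 911 (-1.09 ± 0.09), and SEC61A1, the channel itself, from 2127 to 1236 (-0.78 ± 0.09).

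The pigment cell markers moved in both directions. Of 16 with a signal of 100 or more, 9 fell and 4 rose (S100B, GPNMB, PAX3 and TYR). RAB27A, which tethers pigment granules for transport, was at 3015 and 3333 in control and 877, 825 and 811 in treated cells, a change of -1.92 ± 0.08 (limma adjusted p = 1.44e-05). MLANA, a protein of early melanosomes, went from 6770.0 and 7331 to 3198, 2865 and 3232 (-1.19 ± 0.09). Each treated array of both genes was below every control array. SLC45A2, a melanosomal transporter, fell from 1974 to 542 (-1.86 ± 0.13). The summed signal of the 17 markers was 48410 to 50844 in control and 41290 to 45066 in treated cells, and its part in the other changes was not tested.

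The 10 brightest called rises were all genes of the protein synthesis machinery or linked to it: RPL37A, RPL7, RPL31, RPS29, RPL37, TPT1, RPS6, RPS16, RPS27 and RPLP1. Their changes were small, from 0.32 for RPS16 to 0.42 for RPS27. RPL31 was at 10995 and 11670.4 in control and 15385, 14875 and 14929.7 in treated cells. The groups did not overlap, but with quantile normalisation all 10 changes were between -0.01 and 0.11, and RPS16 turned to -0.01. Several ribosomal probe sets can bind processed pseudogenes. Among the 10 brightest falls, TFRC, MLANA and HSPE1 are described above, and the others were FABP5 (-0.40), PTGES3 (-0.43), CYCS (-0.38), HNRNPA2B1 (-0.40), COX5A (-0.37), TYMS (-0.51) and COX7B (-0.40). The 10 brightest rises all lost their call without control replicate 1, and of them only RPL31 and RPS29 kept it without control replicate 3. Of the falls, FABP5, PTGES3, CYCS, HNRNPA2B1 and COX7B lost it without control replicate 1 and also without control replicate 3, and COX5A and TYMS only without control replicate 3. RPL7, RPLP1, RPS16, RPS27, RPS6 and HNRNPA2B1 lost it when a gene's probe sets were averaged. FABP5 and PTGES3 lost it in that fit too, although each has 1 probe set and its own values did not change. Other lists did not lean one way, such as peroxisome genes with 4 higher (2 without control replicate 1) and 4 lower of 18, kelch-like proteins with 4 and 3 of 15, and TBC domain proteins with 5 and 4 of 20. With arrays centred these were 2 and 5, 3 and 5, and 3 and 5. Translation factors gave 15 higher (8 without control replicate 1) and 8 lower of 44, but 1 and 13 with arrays centred on their median.

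The kinase that the drug targets was itself not called. WEE1 was at 758 and 822 in control and 867, 992 and 999 in treated cells. Every treated array was above both controls, with a change of 0.27 ± 0.11 and limma's adjusted p of 0.111. CDK1, whose inhibitory phosphate WEE1 sets, was at 3294 and 4192 in control and at 3784, 2772 and 3746 in treated cells, with overlapping groups and a change of -0.13 ± 0.18 (limma adjusted p = 0.691). PKMYT1, the membrane-bound kinase that acts on the same protein, fell from 354 and 376 to 200, 239 and 209 (-0.76 ± 0.12, limma adjusted p = 0.00272). RNA levels say nothing of kinase activity.

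Promoter sequences were read for the brighter genes to show what lies in front of some of the genes above. Windows of 300 bases, 250 before to 50 after the start, from RefSeq (GRCh38.p14) matched 7301 of the 8668 brighter genes. They are given 5′ to 3′ on the strand of the gene, with the motif letters in capitals, for 2 genes that rose and 2 that fell, each with a different motif. CXCL8 lies at chr4:73740319-73740618 on the plus strand and holds an AP-1 element (TGANTCA) 137 bases before the start. ASNS lies at chr7:97872359-97872658 on the minus strand and holds the ATF4 and CHOP composite element (TGATGNAA) 68 bases before the start. SLC11A2 lies at chr12:51026335-51026634 on the minus strand and holds 2 CCAAT boxes of NF-Y (CCAAT), the first of which, read 5′ to 3′, begins 61 bases before the start. ABCB6, a haem and porphyrin transporter of the mitochondrion that went from 374 and 324 to 147, 131 and 132 (-1.35 ± 0.11), lies at chr2:219218909-219219208 on the minus strand and holds an E2F element (TTTCCCGC or TTTGGCGC) 170 bases before the start.
CXCL8: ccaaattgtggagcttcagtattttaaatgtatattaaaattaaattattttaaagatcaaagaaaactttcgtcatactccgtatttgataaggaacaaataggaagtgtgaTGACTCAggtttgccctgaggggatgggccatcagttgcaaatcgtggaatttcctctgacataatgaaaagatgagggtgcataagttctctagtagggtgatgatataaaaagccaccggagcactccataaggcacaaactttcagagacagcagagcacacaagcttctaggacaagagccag
ASNS: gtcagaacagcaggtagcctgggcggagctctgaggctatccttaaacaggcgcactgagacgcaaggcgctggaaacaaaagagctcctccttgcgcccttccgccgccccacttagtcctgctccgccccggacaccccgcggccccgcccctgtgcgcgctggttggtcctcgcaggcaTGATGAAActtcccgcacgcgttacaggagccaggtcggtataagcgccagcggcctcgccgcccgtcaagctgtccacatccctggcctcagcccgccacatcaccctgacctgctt
SLC11A2: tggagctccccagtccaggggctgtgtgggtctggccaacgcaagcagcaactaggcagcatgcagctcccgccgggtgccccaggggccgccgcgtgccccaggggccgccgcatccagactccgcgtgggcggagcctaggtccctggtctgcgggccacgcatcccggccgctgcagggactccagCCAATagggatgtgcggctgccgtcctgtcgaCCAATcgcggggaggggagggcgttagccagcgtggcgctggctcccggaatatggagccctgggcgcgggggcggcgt
ABCB6: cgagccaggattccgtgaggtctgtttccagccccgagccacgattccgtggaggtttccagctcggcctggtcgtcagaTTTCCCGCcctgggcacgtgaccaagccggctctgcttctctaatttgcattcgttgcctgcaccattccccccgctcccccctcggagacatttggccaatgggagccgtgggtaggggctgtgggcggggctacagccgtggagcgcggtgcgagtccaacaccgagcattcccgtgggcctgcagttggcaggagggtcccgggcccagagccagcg

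More motifs than these 4 were counted, on both strands in all windows. The 4 were taken for the largest differences between higher and lower genes in each direction. The AP-1 letters were in 4.46% of 1728 windows of called higher genes, 3.37% of 1603 of called lower genes, 4.10% of all 7301 and 7.76% of the 27305 windows in the table. The composite element letters were in 2.08%, 1.81%, 1.70% and 3.67% of the same 4 sets. CCAAT was in 34.7%, 40.9%, 38.3% and 35.7%, and the E2F letters were in 2.72%, 5.30%, 4.14% and 2.31%. CCAAT and E2F letters were thus less frequent before higher than before lower genes, with differences (higher minus lower) of -6.20 and -2.58 percentage points and no test made. Of the motifs not shown, the NRF2 antioxidant response element had the largest difference, -2.26 points. Among genes changed at least 2-fold, AP-1 letters were before 5.02% of higher and 4.98% of lower genes. The composite element was before 3.06% and 3.62% of these, CCAAT before 35.4% and 38.9%, and the E2F letters before 1.965% and 4.98%. A match is a description of letters and not a binding site.

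The 6 arrays with 17-AAG, which share no array with the comparison above, give the change with Wee1 inhibitor II in a second setting. Both drugs against 17-AAG alone called 3816 of 19775 genes (19.3%). Of the 3978 brighter genes called with Wee1 inhibitor II alone, 3060 (76.9%) changed in the same direction with 17-AAG present, 1612 (40.5%) were also called in that direction and 218 (5.48%) were called in the opposite one. The changes were smaller: the median absolute value was 0.65 alone and 0.32 with 17-AAG, and 3355 genes (84.3%) had the larger value alone. These genes were selected on their change alone, which favours a larger value there. Pearson's r of the log2 changes over these genes was 0.59, as a description over genes, which are not independent replicates. Genes that rose had a median of 0.72 alone and 0.27 with 17-AAG, and genes that fell had -0.60 and -0.25. Both sets of calls came from the same fit, in which all groups share a gene's spread. In separate fits of the 5 and the 6 arrays, 1915 brighter genes were called with Wee1 inhibitor II alone. Of these, 82.3% had the same sign with 17-AAG present, and 681 were also called in that direction.

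The difference itself was tested as an interaction of the drugs, which called 2331 of all 19775 genes (11.8%) and 2018 of the 8668 brighter genes (23.3%). Of the 3978 genes called with Wee1 inhibitor II alone, 1506 had a called interaction, 1405 of them with a smaller or turned change when 17-AAG was present and 101 with a larger one. The change alone, on which these genes were selected, is subtracted in the interaction. This selection favours a smaller or turned change, so the split of 1405 and 101 is in part built in. CEBPD was at 479.8, 424 and 419 with 17-AAG and 615, 644 and 632 with both drugs, a change of 0.52 ± 0.10 against 3.31 ± 0.12 alone. ID3 was at 92.7, 105 and 84.1 with 17-AAG and 132, 140.0 and 137 with both drugs, a small rise of 0.54 ± 0.10 where it fell alone. SLC11A2 stayed at 848, 797 and 794 with 17-AAG and 739, 764 and 851 with both drugs, with overlapping groups and a change of -0.05 ± 0.08. IQGAP3, a scaffold of the cytoskeleton, rose alone from 232 and 256 to 526, 549 and 591 and fell from 331, 277 and 299.5 to 70.5, 61.0 and 74.1 with 17-AAG present. RUNX2, a transcription factor of bone, rose alone from 66.1 and 51.1 to 436, 403 and 401 and fell from 212, 148 and 186 to 99.7, 93.5 and 106. These 2 genes changed in opposite directions in the 2 settings, with no overlap of arrays in either, but the rise of RUNX2 without 17-AAG lost its call when its probe sets were averaged.

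Other genes kept a like change in both settings. H2BC12 rose by 2.38 ± 0.10 alone and 2.48 ± 0.09 with 17-AAG present (interaction adjusted p = 0.717 in limma), and H2AC6 by 2.63 ± 0.12 and 2.99 ± 0.10 (0.189). KITLG changed by -1.44 and -1.32 (0.69) and SLC39A8 by -1.86 and -1.69 (0.489). A p above the threshold does not show that the changes were equal. E2F8, a repressor of cell cycle genes, and CDKN3, a phosphatase of cyclin-dependent kinases, fell further with 17-AAG present. The change of E2F8 was -0.76 ± 0.11 alone and -3.10 ± 0.10 with 17-AAG, and that of CDKN3 was -0.37 ± 0.08 and -2.23 ± 0.07, the former not called without control replicate 3. SERPINA3, the largest rise alone, was at 195, 125 and 197 with 17-AAG and 299, 311 and 317 with both drugs, so its change was 4.65 alone and 0.87 with 17-AAG.

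**Figure D4:**
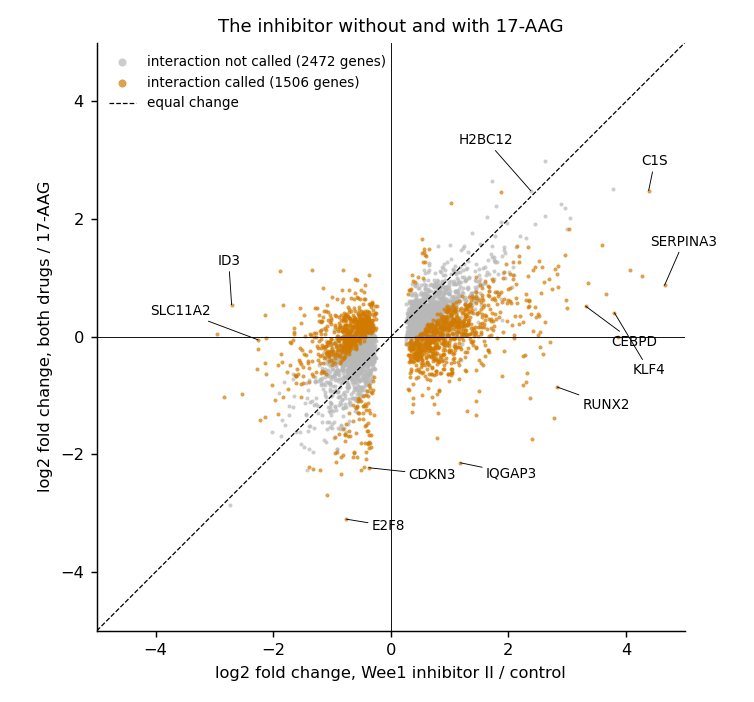
Change with Wee1 inhibitor II alone (log2 fold change against control, horizontal axis) and with 17-AAG present (both drugs against 17-AAG alone, vertical axis) for the brighter genes called with Wee1 inhibitor II alone, each point a gene. Of 3978 genes, 3060 lie in the quadrants of equal sign, and most lie closer to 0 on the vertical axis.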

How the data were processed

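Gene expression was measured once per sample on Affymetrix U133 Plus 2.0 arrays. The authors deposited an intensity per probe set on a linear scale, unit unstated, and the trimmed mean was 150 on all 12 arrays. Partek 6.5 and RMA are named in the submitters' processing notes, but the deposited intensity values are not on the log scale of RMA, and the background correction and summary used are not given in the sources used here.

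The 62 control probe sets were left out. Of the rest, 41091 had 1 gene symbol in the platform annotation, 1801 several and 11721 none. Each of 19775 genes was read from the probe set with the highest mean log2 value over the 11 arrays. Log2 values of 11 arrays in 4 groups were fitted with limma 3.58.1 in R 4.3.3 (7 residual degrees of freedom, so that all groups share the spread), with Benjamini-Hochberg adjustment over all genes and a call at 0.05. No other scaling, filter or pseudocount was used, and the fit was tested on simulated data. Tables and figures were made with Python 3.11.15, pandas 2.3.3, numpy 2.4.6 and matplotlib 3.10.9.

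Named genes are the 15 largest rises and falls among called genes with a signal of 100 or more and arrays that did not overlap, up to 4 called members of each list by smallest p, the 10 brightest called in each direction, up to 10 genes below 32 in a group and at 100 or more in the other, the 8 smallest interaction p-values, and WEE1, PKMYT1 and CDK1. Members that went against their list, HOXB13, EPCAM, ASNS, the 4 promoters printed, the 4 genes shown with a like change in both settings and the mitochondrial split of tRNA synthetases were chosen after their values were seen. The members and lists were chosen with earlier results of these data known. Alternatives were other scalings, filters, probe set rules, weights, thresholds, a replicate block, the weak array included and each array left out. Some results are not reported here.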

Additional observations from a re-analysis of the deposited data

Results flagged for a closer look

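The change with Wee1 inhibitor II differed with 17-AAG present, by limma's interaction test, in 2331 of 19775 genes. The named genes with the smallest interaction p-values had log2 differences, given as the change with 17-AAG present minus the change alone, of -1.85 for CDKN3, -2.79 for CEBPD, -2.35 for E2F8, 3.00 for ID2, 3.25 for ID3, -3.33 for IQGAP3, -3.69 for RUNX2 and 2.20 for SLC11A2, with limma adjusted p-values from 0.000176 to 0.000378. The causes of these differences were not tested.

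On the control array that was left out, 15 of 22 prostate and epithelial markers were above their signals on all 11 other arrays. HOXB13 was at 2087 there and between 2.14 and 11.3 on the 11 others, and EPCAM was at 1096.5 there and between 5.33 and 26.2 on the others. CTNNA1 and STAT3, the 2 genes deleted in PC3 cells, were at 1.565 and 7.54 there. On the 11 others they were between 2559 and 5040 and between 819 and 1296. The source of these differences was not tested.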

How the results depend on the processing

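The count of called genes, 4922, stayed within 1.5 times under array weights (4864), quantile normalisation (4629), a floor of 32 (4960), trend and robust moderation (5805), removal of the dimmest 40% of genes (5778), brighter genes only (5213) and every probe set (7142 probe sets). Counts below are in the order of all called, brighter higher, brighter lower, called for both drugs against 17-AAG, and interaction. With the weak control array included they were 1268, 646, 376, 542 and 119 (843 higher and 425 lower over all genes), and the changes of 6 genes turned: COX5A 0.0343, FABP5 0.0103, MLANA 2.60, MMP8 0.15, PHACTR1 1.52 and TRPM1 0.87. With probe sets averaged per gene they were 3215, 1341, 1194, 2370 and 1099. With an adjusted p under 0.01 they were 2816, 1376, 1094, 1932 and 828. Calls at an adjusted p under 0.05 with a change of at least 2-fold numbered 1468, 578, 262, 882 and 895. A fit restricted to the 5 or 6 arrays of a comparison, which has no value for the interaction, gave 2461, 1094 and 821 for the first 3. Centring on the median gave 998 brighter higher genes (1444 over all genes) and 1255 interactions, and quantile normalisation turned RPS16 to -0.0098. The interaction called 3716 genes with brighter genes only and 3558 without the dimmest 40%. Leaving out an array in turn gave 3225 to 4891 called, 1449 to 2085 brighter higher, 1135 to 1861 brighter lower, 2005 to 2877 higher and 1220 to 2014 lower over all genes, 2739 to 3590 for both drugs against 17-AAG and 1350 to 2223 interactions. The lowest count of all called genes and of interactions came without control replicate 3, and that for both drugs against 17-AAG without both drugs replicate 3.

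Deviations from group means correlated at -0.137 to 0.096 for arrays with the same replicate number and at -0.184 to 0.184 for different numbers. The deviations of the 2 control arrays mirror each other, so this check cannot show that the arrays were unpaired. With a replicate block the counts were 4173, 1835, 1537, 3092 and 1483.

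Of the 64 named genes called, 20 kept the call under every alternative other than the 2-fold and 0.01 thresholds. The weak array removed the call from 36 without a change of sign. The changes of COX5A, FABP5, MLANA, MMP8, PHACTR1 and TRPM1 turned with it, and these genes lost the call too. Control replicate 1 or 3 left out also removed calls, and the fit restricted to the compared arrays removed it from 20. Those lost without a control array were bright genes with small changes, such as RPL7, TYMS and COX5A. The number of arrays, 2 against 3, limits the precision.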
